A study of Mus musculus with 7 samples.

Results

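Sorted Ly6G+ bone marrow cells with RUNX1 mutation and HMGA2-OE together were compared with Ly6G+ cells that carried HMGA2-OE without the mutation, so that both sides share the HMGA2 overexpression and differ in the RUNX1 mutation. Genes were taken when they reached 1 TPM, a length-corrected share of the library, or more in either of them, which left 10945 of the 28987 genes in the table. The pair uses 2 of the 7 libraries of the study, 1 library a side, so each difference is a log2 ratio with no test, no error and no replicate check. The study's title speaks of an MDS mutant clone, MDS being the usual short form of myelodysplastic syndrome. Each library came from the marrow of an individual C57BL/6 mouse, and no age or sex is given. Ly6G+ cells, sorted as mutant myeloid cells, were profiled once in each of 4 genotypes: Control, RUNX1 mutant (RUNX1mut), HMGA2-OE, and both (RUNX1mut/HMGA2-OE, or the double mutant). Levels in the 4 Ly6G+ libraries are always given in that order. Bone marrow stem and progenitor cells (HSC/P), selected by CD117 before the mutant clone was sorted, gave 1 HMGA2-OE library and 2 double mutant libraries. The sources used here do not give the form of the RUNX1 mutation, the promoter that drives HMGA2, or how either was introduced. On mm10 with GENCODE M21, Runx1 lies at chr16:92601466-92826149 (minus strand), Hmga2 at chr10:120361275-120476469 (minus) and S100a8 at chr3:90668978-90670035 (plus).

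RUNX1 is a transcription factor that binds DNA together with its partner CBFB and is needed for the formation of blood stem cells and for the orderly maturation of granulocytes, platelets and lymphocytes. HMGA2 is a small chromatin protein that is active in fetal stem cells, is held down by let-7 microRNAs in adult tissue, and gives blood cell clones a growth advantage when overexpressed. Ly6G marks neutrophils, which fill primary, secondary and tertiary granules in successive stages of maturation and carry very large amounts of S100a8 and S100a9 RNA.

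The products of S100a8 and S100a9 form calprotectin, the main cytosolic protein of neutrophils. Together the 2 genes took 52.3%, 48.1%, 61.7% and 17.2% of TPM in the 4 Ly6G+ libraries. S100a8 alone took 54.6% of TPM in the HMGA2-OE library and 3.06% in the RUNX1mut/HMGA2-OE library. TPM values sum to a fixed total, so a difference of that size in 1 gene moves all others, and the median log2 ratio over the 10945 genes was 1.01 before scaling. Libraries were therefore scaled by a trimmed mean of log ratios (factors 1.11, 0.982, 1.45 and 0.634), after which the median was 0.05. All levels below are scaled TPM, ratios are log2 ratios of these levels after adding 1 TPM to each, and "higher" and "lower" are relative to the bulk of genes. TPM keeps no read counts, so the depth behind each value is unknown. In bulk libraries fewer cells of a type and less RNA per cell cannot be told apart. The defining markers of neutrophils were abundant in all 4 libraries. Ly6g was at 460.1, 334, 391 and 279.6, the granule gene Camp at 13139, 11810.0, 13020.5 and 11135 and Ltf, which encodes lactoferrin, at 13033, 11162, 12205 and 11608.

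Among all genes, 669 (6.11%) were at least 2-fold higher and 534 (4.88%) at least 2-fold lower in RUNX1mut/HMGA2-OE, with 89.0% between these bounds. Ratios above 0 were found for 55.4% of all genes. Without scaling the counts were 5625 higher and 238 lower. The 2 HSC/P libraries of equal genotype differed at least 2-fold in either direction for 3.39% of the same genes. Of the 10945 genes, 2386 reached 1 TPM in the double mutant alone and 182 in HMGA2-OE alone. The 1 TPM and 10 TPM bounds were applied to TPM before scaling. The scaling factor of HMGA2-OE was 2.29 times that of the double mutant, so such a bound is more easily reached in the double mutant. The gene lists used below were read with these shares in mind, and list members named beyond the 2 highest and 2 lowest at 10 TPM or more were chosen after their values were seen.

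The ratios moved with the length of the annotated transcript. Of 982 genes with an annotated transcript of 370 to 400 nt and none of 401 to 440 nt, 21.7% were at least 2-fold lower and 2.75% at least 2-fold higher. Of 1514 genes with one of 401 to 440 nt and none of 370 to 400 nt, 19.0% were at least 2-fold higher and 4.29% lower. Among 5166 genes with no annotated transcript of 500 nt or less the shares were 2.83% higher and 2.36% lower. Genes whose annotated transcripts differ by at most 15 nt in length show it most directly: the median was -2.35 over 48 genes of 370 to 400 nt and 1.19 over 92 genes of 401 to 440 nt, and 0.05 over 678 genes longer than 1000 nt. Classes of 441 to 480 nt (103 genes, median 0.79, 35 at least 2-fold higher) and of 501 to 600 nt (101 genes, median 0.70, 19 higher and 8 lower) also lay above 0, so genes without a transcript of 500 nt or less are not free of the pattern. In RUNX1mut over Control the median of both short single-length classes was 0, but of the 982 genes 11.7% were at least 2-fold lower and 7.33% higher, against 1.61% and 3.58% of the 5166. Set against Control, the class of 370 to 400 nt had a median of 0.94 in the HMGA2-OE library and -1.51 in the double mutant, and the class of 401 to 440 nt had a median of 1.23 in the double mutant. The class bounds were chosen after the values were seen, and the part of transcript length in any single ratio was not tested. Genes with an annotated transcript of 370 to 440 nt are called short-transcript genes below.

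**Figure D1:**
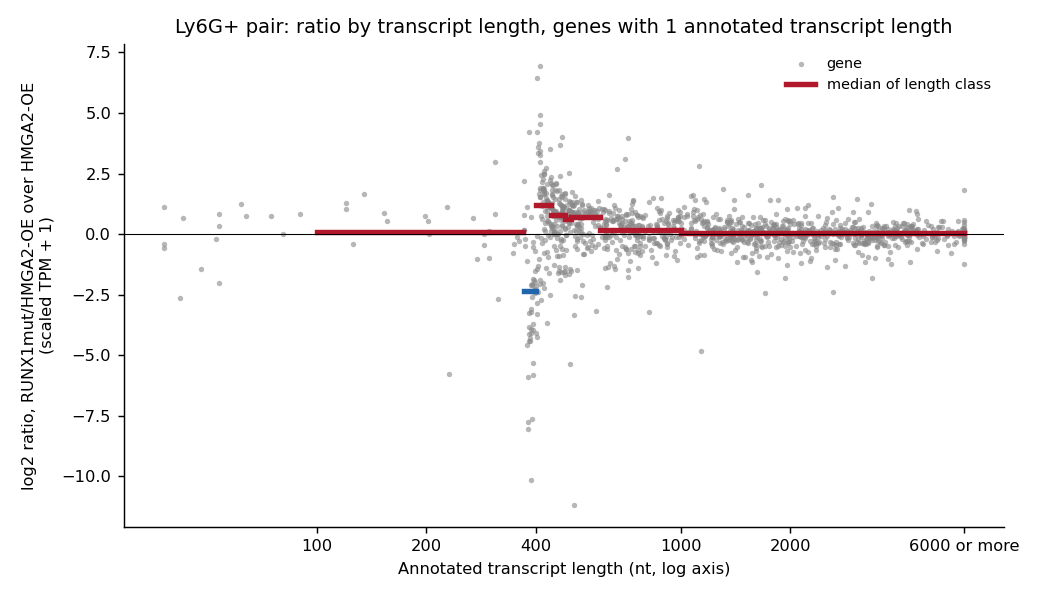
Each point is a gene whose annotated transcripts differ by at most 15 nt in length, with that length in nt on a log axis (the longest drawn at the right edge) and its log2 ratio, RUNX1mut/HMGA2-OE over HMGA2-OE in Ly6G+ cells, on the y axis. Bars are medians of length classes, red above 0 and blue below: they drop to -2.35 at 370 to 400 nt, reach 1.19 at 401 to 440 nt and lie at 0.05 beyond 1000 nt.

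Promoters are shown for 5 genes that were at least 2-fold different in the same direction here, in RUNX1mut over Control in Ly6G+ cells and in the HSC/P comparison, since these are the genes whose difference went with the RUNX1 mutation in 3 pairs that share no library. Each run is the 250 bases before the RefSeq start (GRCm38.p6), 5′ to 3′ on the gene's strand, with the RUNX core motifs TGTGGT and TGCGGT or their complements ACCACA and ACCGCA in capitals. Runx3 lies at chr4:135120395-135120644 (plus strand), Stfa3 at chr16:36455393-36455642 (minus), H2-Eb1 at chr17:34305617-34305866 (plus), Stk39 at chr2:68471982-68472231 (minus) and Mgst2 at chr3:51660929-51661178 (plus). The first 3 genes were higher and the last 2 lower. All except H2-Eb1 are short-transcript genes. In HSC/P Stfa3 was low, at 0.374 TPM before scaling in HMGA2-OE and at 8.32 and 3.47 in the 2 double mutant libraries.
Runx3: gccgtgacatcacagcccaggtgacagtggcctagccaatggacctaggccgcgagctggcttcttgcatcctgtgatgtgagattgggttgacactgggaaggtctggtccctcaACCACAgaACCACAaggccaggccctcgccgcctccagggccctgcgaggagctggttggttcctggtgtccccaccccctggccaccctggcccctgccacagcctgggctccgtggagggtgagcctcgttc
Stfa3: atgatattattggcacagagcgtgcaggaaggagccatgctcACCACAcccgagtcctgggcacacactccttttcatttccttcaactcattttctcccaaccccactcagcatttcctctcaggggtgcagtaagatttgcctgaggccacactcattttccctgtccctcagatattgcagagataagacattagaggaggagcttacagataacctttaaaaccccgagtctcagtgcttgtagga
H2-Eb1: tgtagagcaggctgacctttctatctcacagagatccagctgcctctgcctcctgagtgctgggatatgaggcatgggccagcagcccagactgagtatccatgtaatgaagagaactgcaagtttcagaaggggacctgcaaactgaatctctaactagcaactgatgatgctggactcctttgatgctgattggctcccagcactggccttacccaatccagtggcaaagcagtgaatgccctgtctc
Stk39: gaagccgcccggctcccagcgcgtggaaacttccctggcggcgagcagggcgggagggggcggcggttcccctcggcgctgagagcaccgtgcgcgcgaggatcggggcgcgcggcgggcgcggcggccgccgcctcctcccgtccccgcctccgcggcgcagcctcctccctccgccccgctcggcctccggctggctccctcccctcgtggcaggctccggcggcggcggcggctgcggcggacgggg
Mgst2: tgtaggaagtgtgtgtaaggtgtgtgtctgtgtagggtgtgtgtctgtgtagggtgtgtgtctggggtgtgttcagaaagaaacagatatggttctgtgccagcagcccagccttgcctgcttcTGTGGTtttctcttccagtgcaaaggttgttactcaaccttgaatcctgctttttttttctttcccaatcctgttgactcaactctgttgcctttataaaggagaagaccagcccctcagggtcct
RefSeq lists 2 starts for Runx3, and the window of 1 of them is shown. It holds 2 motifs, whose first bases lie 134 and 126 bases before that start. Stfa3 holds 1 at 208 bases and Mgst2 1 at 126 bases. H2-Eb1 and Stk39 hold none of these letters in the window. On either strand, 18.6% of all 32851 promoters in the RefSeq table hold at least 1 such motif. Among genes at least 2-fold higher in all 3 pairs the motif was present in 8 of 29 promoters found (27.6%), and among those at least 2-fold lower in 4 of 16 (25%). A match of 6 letters is a description and not a binding site.

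The 3 RUNX genes were all higher in the double mutant. Runx1 RNA was at 4.28, 11.4, 4.87 and 13.5, a log2 ratio of 1.30 (2.46-fold), and was high in both libraries labelled with the mutation. Runx3, which encodes a RUNX protein used mainly in T and NK lymphocytes, was at 1.83, 14.1, 2.62 and 45.2, a ratio of 3.67 (12.8-fold), the largest of the family. Runx2, the bone-forming member, was at 4.93, 5.47, 5.97 and 16 and differed by 1.28 here but by 0.13 in RUNX1mut over Control. Runx2 and Runx3 are short-transcript genes, and the table does not separate introduced from endogenous Runx1 RNA. In HSC/P the ratios to HMGA2-OE were 3.35 and 3.34 for Runx1, 1.31 and 1.19 for Runx2, and 3.91 and 3.40 for Runx3.

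The partners of RUNX1 behaved differently from the family itself. Cbfb, the DNA-binding partner, was at 8.21, 10.1, 8.09 and 8.79 (0.11). Cbfa2t2, which encodes a corepressor of the ETO family, was at 12.2, 3.52, 56.1 and 4.54 (-3.36). For Cbfa2t2, a short-transcript gene, the HMGA2-OE library is high and the other 3 are low. The corepressor gene Tle3 was at 23.7, 18.7, 36.7 and 48.9 (0.40). Of 8 measured genes of RUNX factors and cofactors, 3 were at least 2-fold higher (the 3 RUNX genes) and 1 lower.

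Both sides of the pair carried HMGA2-OE, and Hmga2 RNA was similar on both. Hmga2 was at 1.61, 1.33, 5.39 and 7.65 (0.44), and the 2 HMGA2-OE libraries lay above the other 2. Ngfr, which encodes a nerve growth factor receptor, was at 0.053, 0.0551, 16.4 and 23.3 (0.48), near 0 without HMGA2-OE. Igf2bp2, which encodes an RNA-binding protein known as a target of HMGA2, was at 0.186, 0.0771, 4.26 and 18.8 (1.91) and is a short-transcript gene. Of 6 measured genes of the HMGA2 and let-7 axis, Igf2bp2 was the 1 at least 2-fold higher and none was at least 2-fold lower.

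Among myeloid transcription factors, 0 of 13 were at least 2-fold higher and 1 was at least 2-fold lower, with a median of -0.26. Spi1, which encodes PU.1, the master factor of myeloid cells, was at 629, 543, 787 and 392 (-1.01), the lowest level of the 4 in the double mutant. Cebpb, a factor of emergency granulopoiesis, was at 111, 137, 267 and 139 (-0.94), with the HMGA2-OE library high and the other 3 alike. Cebpe, which drives the secondary granule stage, was at 73.5, 88.4, 78.9 and 97 (0.29), and Gfi1, a repressor needed for neutrophil fate, at 10.3, 6.42, 10.3 and 6.19 (-0.65). Without scaling Spi1 stood at 0.19 and the median of the list at 0.84. Spi1 is a short-transcript gene, while Cebpb is not.

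Secondary and tertiary granule genes reached 2-fold in shares near those of all genes (6.11% higher and 4.88% lower). Of 16 such genes, 1 was at least 2-fold higher and 1 lower, with a median of -0.16. Lactoferrin (Ltf, -0.072), lipocalin 2 (Lcn2, -0.081), cathelicidin (Camp, -0.23), the collagenase Mmp8 (-0.094) and the surface protein Cd177 (-0.025) all lay within 0.25 of 0. Hp, which encodes haptoglobin, was at 2089, 1091, 2269 and 996 (-1.19), lower in both libraries with the RUNX1 mutation. Olfm4, a protein of a neutrophil subset, was at 69.1, 52.5, 31.6 and 82.1 (1.35), highest in the double mutant and lowest in HMGA2-OE. In HSC/P the same contrast gave 15 of these 16 genes at least 2-fold lower, with medians of -2.09 and -1.86 in the 2 libraries, against 3.18% of all genes. The difference between cell types was not tested, since the Ly6G+ side has 1 library a genotype.

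Primary granule genes, made at the promyelocyte stage, were mixed, with 0 of 9 at least 2-fold higher, 1 lower and a median of 0.16. Mpo, which encodes myeloperoxidase, was at 31.5, 231, 77.1 and 145 (0.90), and Prtn3, which encodes proteinase 3, at 10.7, 57, 23.4 and 47.4 (0.99). Elane, which encodes neutrophil elastase, was at 18.5, 150.4, 38.7 and 64 (0.71), and Ctsg, which encodes cathepsin G, at 3.09, 19.3, 8.41 and 9.5 (0.16). For these 4 genes the RUNX1mut library held the highest level of the 4 and Control the lowest. In RUNX1mut over Control the ratios were 2.83 for Mpo, 2.32 for Prtn3, 2.96 for Elane and 2.31 for Ctsg, and the list's median was 1.23 with 5 of 9 at least 2-fold higher. Fcnb, which encodes ficolin B, was at 274, 197, 320.3 and 214 (-0.58), and the serine protease gene Prss57 was the lower one at 10.6, 7.05, 11.5 and 4.16 (-1.27).

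Genes of late neutrophils were lower more often than higher: of 22, 6 were at least 2-fold lower and 0 higher, with a median of -0.38. S100a8 was at 487464, 391222, 791255 and 19409 (-5.35), while S100a9, its partner, was at 92767, 80532, 102479 and 89925 (-0.19). The double mutant is the single low library for S100a8, and S100a9 is alike in all 4. S100a8 transcripts are 486 to 498 nt long. Among the 28 single-length genes of 481 to 500 nt the next lowest ratio was -1.67 and the median 0.63. In the next class, of 501 to 600 nt, 19 genes were at least 2-fold higher and 8 lower, and the lowest ratio was -11.17 (the pseudogene Gm7206, 508 nt). The part of transcript length in the S100a8 ratio was not tested. Il1b, which encodes interleukin 1 beta, was at 662, 708, 3384 and 263 (-3.68), high in HMGA2-OE, and is a short-transcript gene. Il1r2, the decoy receptor for interleukin 1, was at 171, 74.4, 299.9 and 39.4 (-2.90), and Clec4e, the receptor Mincle, at 54.9, 17.1, 94.7 and 13.4 (-2.73). Both were lower in each library with the RUNX1 mutation than in either without. Without genes that have a transcript of 500 nt or less, 2 of 16 late genes were at least 2-fold lower: Wfdc17, a small secreted protein, at 258, 85.5, 395 and 64 (-2.61), and Csf3r, the receptor of G-CSF, at 592, 402, 806 and 393 (-1.03). Cxcr2, the receptor that brings neutrophils out of the marrow, was at 319, 303, 450.3 and 359 (-0.33), and Retnlg, a late neutrophil secreted protein, at 15100.2, 22078, 16499 and 25136 (0.61).

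Receptors and oxidative burst genes lay mostly below the bulk of genes. Of 9 measured chemoattractant receptors 9 were below 0, with a median of -0.34, and 2 were at least 2-fold lower. Ccr1, a chemokine receptor, was at 150.0, 102, 221 and 87.3 (-1.33), and Cxcr1 at 5.5, 0.715, 3.7 and 0.299 (-1.86), lower in both libraries with the RUNX1 mutation. Of 9 NADPH oxidase genes 9 were below 0, with a median of -0.19. Of all genes, 55.4% were above 0. Cybb, which encodes the catalytic subunit gp91phox, was at 698, 453, 1073 and 410.0 (-1.39), and Hvcn1, the proton channel that sustains the burst, at 108, 55.8, 90.1 and 37.1 (-1.26). Both are short-transcript genes, and without scaling both lists had medians above 0, as all 37 lists did (0.41 to 3.76).

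The stefin genes of chromosome 16, which encode small inhibitors of cysteine proteases, were far higher in the double mutant: 6 of 8 measured members of the stefin list were at least 2-fold higher and 1 lower, with a median of 2.58. Stfa1 was at 212, 593, 199 and 3200.5 (4.0), Stfa2 at 29.4, 227, 82.9 and 1348 (4.01) and Stfa3 at 26.8, 169.6, 48.1 and 1465 (4.90). For each of the 3 genes the RUNX1mut library was above Control as well, by 1.48, 2.91 and 2.62. Stfa2l1 was at 432, 662, 961 and 2441 (1.34), while Cstb, the broadly expressed cystatin B, was at 71.9, 88.2, 68.3 and 82.2 (0.26). BC117090, a further member, was at 2.02, 12.2, 25 and 0.559 (-4.06), and it is also a short-transcript gene. These genes are near-identical copies whose reads may be split among them, and of the 8 only Stfa1 and Cstb lack a transcript of 500 nt or less.

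**Figure D2:**
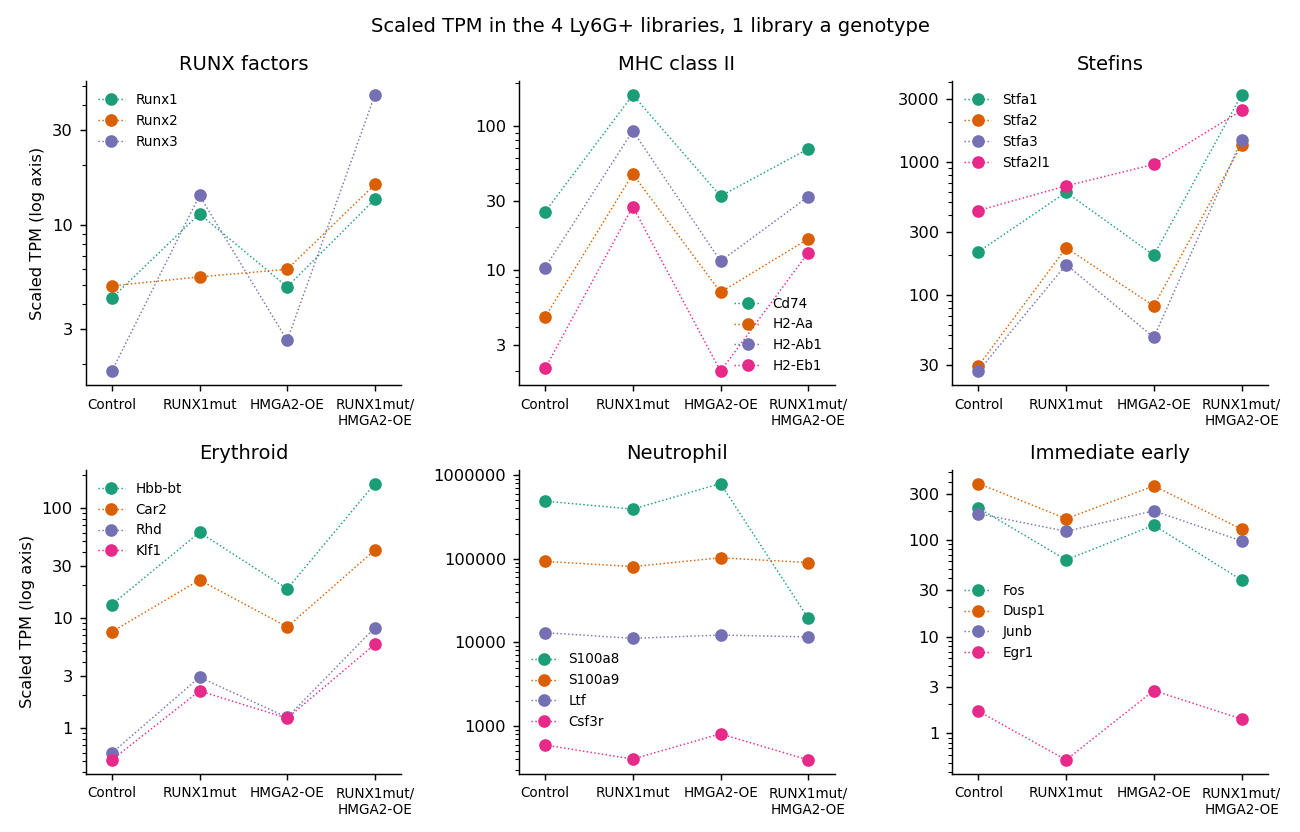
Scaled TPM (log axis) of selected genes in the 4 Ly6G+ libraries, 1 point a gene and library, with dotted lines joining the points of a gene. RUNX, MHC class II, stefin and erythroid genes are higher in both libraries with the RUNX1 mutation than in their counterparts without it, except that Runx2 is similar in Control and RUNX1mut, while S100a8 is low in RUNX1mut/HMGA2-OE alone (19409 scaled TPM) and S100a9 is level.

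MHC class II genes, whose products present antigen to CD4 T cells, were higher: 4 of 8 measured members at least 2-fold and 0 lower, with a median of 0.91. The invariant chain Cd74 was at 25.4, 164, 32.6 and 69.3 (1.07). The chains H2-Aa at 4.71, 46.3, 7.02 and 16.4 (1.12), H2-Ab1 at 10.4, 92.6, 11.5 and 32.2 (1.41) and H2-Eb1 at 2.07, 27.6, 1.98 and 13.2 (2.25) showed the same pattern. All 4 genes were higher in each library with the RUNX1 mutation than in either without, none has a transcript of 500 nt or less, and the levels were highest in RUNX1mut. The HSC/P ratios were 1.54 and 1.60 for Cd74 and 2.07 and 1.98 for H2-Eb1. The loading gene H2-DMa was at 2.8, 11.3, 4.46 and 4.64 (0.047) and H2-DMb2 at 18.6, 18.6, 27.5 and 22 (-0.31). Cd86, a costimulatory ligand of antigen-presenting cells, was at 5.77, 17, 7.59 and 28.4 (1.78). Markers of cells that carry MHC class II are given beside it. Of 8 dendritic cell markers 2 reached 1 TPM, with a summed level of 3.4, 7.0, 5.3 and 7.8 for the list. Of these 2, 1 stood at 1.75 and was at least 2-fold higher in both Ly6G+ pairs, and the other stood at -0.37. The defining genes Xcr1, Clec9a and Zbtb46 were below 1 in all 4 libraries. B lymphoid markers summed to 136.1, 232, 139 and 173. Monocyte and macrophage markers summed to 1911, 1254, 1926 and 914, of which Ly6c2 made up most in 3 libraries, and to 345, 480.4, 429.98 and 494 without it. Of the macrophage complement genes, C1qb stood at 1.03 here and 1.32 in RUNX1mut over Control, and C1qc at 0.96 and 0.97. Their part in the MHC class II result was not tested.

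Immediate early genes, which are switched on within minutes of a stimulus, were lower: 4 of 17 measured members at least 2-fold and 0 higher, with a median of -0.65 (0.41 without scaling). Fos was at 213, 62.1, 142 and 38.4 (-1.85) and Dusp1, a phosphatase that ends MAP kinase signals, at 381, 165, 361 and 129 (-1.48). Junb was at 186, 122, 199 and 97.4 (-1.03) and Atf3, a stress factor, at 2.5, 2.07, 4.51 and 1.5 (-1.14). For Fos and Dusp1 both libraries with the RUNX1 mutation lay below both without, and their ratios in RUNX1mut over Control were -1.76 and -1.20. Jun was at 11.9, 6.4, 11.1 and 8.84 (-0.30) and Egr1 at 1.7, 0.533, 2.77 and 1.41 (-0.65). In HSC/P the list's median was 0.12 and 0.55 in the 2 double mutant libraries, and the difference between the cell types was not tested.

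Inflammatory signalling genes leaned the same way. Of 20 NF-kB targets, 4 were at least 2-fold lower and 0 higher, with a median of -0.39 (0.68 without scaling). Besides Il1b these were the chemokines Ccl3 at 1.31, 1.35, 4.19 and 0.949 (-1.41) and Ccl4 at 4.38, 3.39, 4.47 and 1.0 (-1.45) and the cyclooxygenase Ptgs2 at 2.59, 0.266, 1.94 and 0.312 (-1.16), all 3 at low levels. The inhibitor Nfkbia was at 107, 97.8, 136 and 106 (-0.35). Of 17 innate sensing genes, 2 were at least 2-fold lower. Both act just below Toll-like receptors and are short-transcript genes: the adaptor Myd88 at 93.9, 109, 672 and 78.3 (-3.08) and the kinase Irak1 at 32.2, 36.2, 82.7 and 24.2 (-1.73), each high in HMGA2-OE. Socs3, a feedback inhibitor of cytokine signals, was at 19.4, 13.1, 30.0 and 10.3 (-1.46), and Acod1, which makes the antimicrobial itaconate, at 13.3, 6.52, 24.7 and 3.91 (-2.39). Interferon response genes had a median of -0.13, with 1 of 19 at least 2-fold higher (Mx1 at 1.03, 0.944, 1.09 and 3.62) and 1 lower (Oasl2 at 61.6, 64.2, 66.7 and 32.8).

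Energy metabolism showed small shifts. Of 17 glycolysis genes 14 were below 0 and 2 at least 2-fold lower, with a median of -0.42 (0.76 without scaling). Ldha, which encodes lactate dehydrogenase, was at 614, 349, 599 and 287 (-1.06). Slc2a1, the glucose transporter GLUT1, was at 12.3, 9.66, 27.8 and 12.2 (-1.12). Both are short-transcript genes. Among the 5 glycolysis genes with no transcript of 500 nt or less, 0 were at least 2-fold lower, with a median of -0.17. Mitochondrially encoded genes were above 0 for 12 of 13, against 55.4% of all genes, with a median of 0.41, though 0 reached 2-fold. mt-Nd2, a subunit of complex I, was at 16.8, 29.9, 19.4 and 35.4 (0.84). Nuclear genes of oxidative phosphorylation had a median of 0.07, and the high value of Sdha at 72, 62.2, 91.4 and 791 (3.10) belongs to a short-transcript gene. Ribosomal protein genes were above 0 for 19 of 23, with a median of 0.33. The lowest of that list, Rps29 at 709, 944, 1238 and 31.7 (-5.24) and Rps21 at 101, 174, 129 and 22.4 (-2.48), are short-transcript genes.

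Of 24 cell cycle genes 0 were at least 2-fold in either direction, with a median of 0.04. Since 89.0% of all genes lay within 2-fold, a count of 0 in a small list is near the share of all genes. The proliferation marker Mki67 was at 8.05, 7.14, 7.19 and 6.76 (-0.078), topoisomerase Top2a at 27, 27.4, 25.9 and 25.9 (0.0028) and cyclin Ccnb1 at 28.2, 31.7, 24.1 and 29.1 (0.26). The replication helicase genes were slightly higher, for example Mcm3 at 5.6, 13.1, 7.58 and 11.3 (0.52). Apoptosis regulators had 0 of 9 at least 2-fold in either direction, with a median of -0.30. Mcl1, the survival factor of neutrophils, was at 111, 141, 171 and 139 (-0.30). Of 16 unfolded protein response genes, Asns, which encodes asparagine synthetase, was the lower one at 35.1, 8.0, 51.2 and 22.6 (-1.15) and Sdf2l1, a chaperone partner, the higher one at 4.18, 12.2, 4.68 and 10.4 (1.01).

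**Figure D3:**
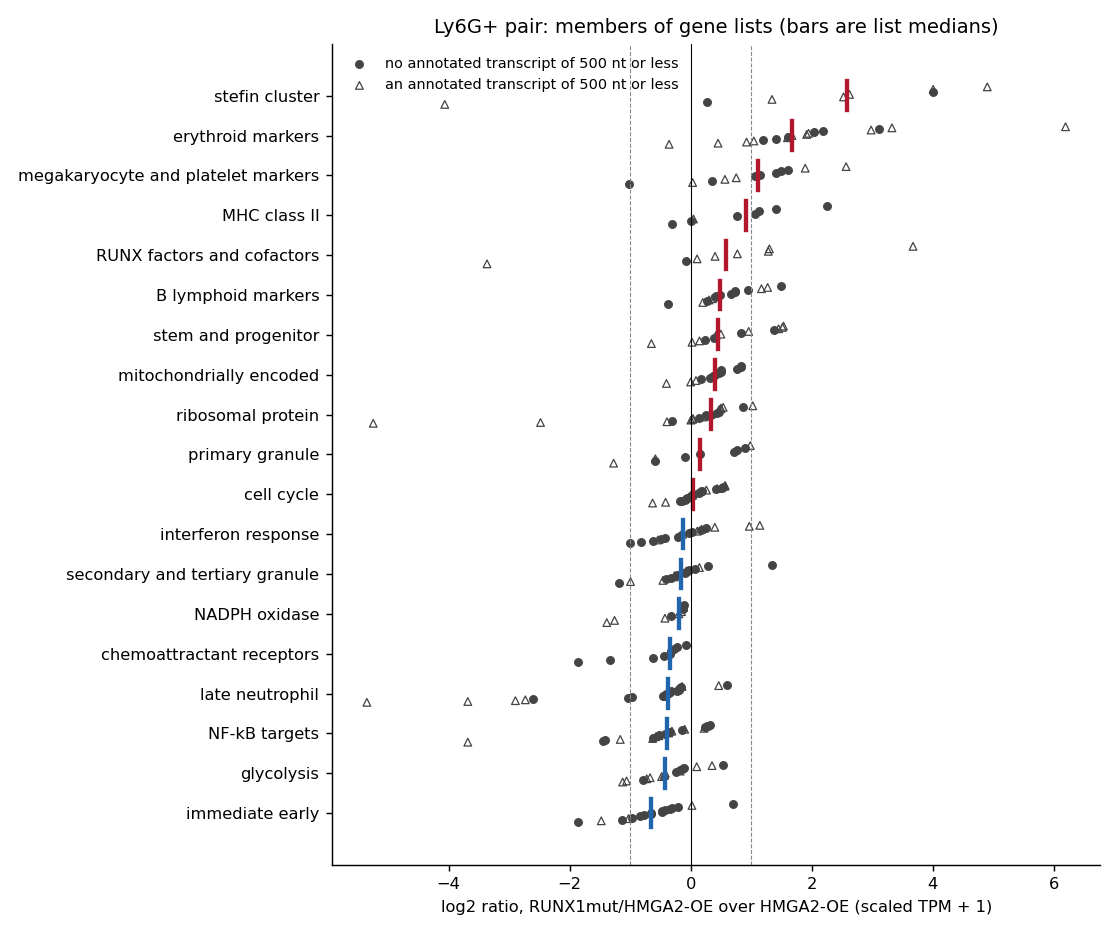
Log2 ratios of list members with 1 TPM or more in either library, RUNX1mut/HMGA2-OE over HMGA2-OE in Ly6G+ cells, for 19 of the 37 lists. Filled circles are genes with no annotated transcript of 500 nt or less, open triangles are genes with one, coloured bars are list medians (from 2.58 for stefins to -0.65 for immediate early genes) and dashed lines mark 2-fold.

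Markers of red cells were higher in the double mutant. Of 17 measured erythroid markers 14 were at least 2-fold higher and 0 lower, with a median of 1.67, and without transcripts of 500 nt or less 6 of 6 were. The globin gene Hbb-bt was at 13.3, 60.5, 18.5 and 168 (3.11), the carbonic anhydrase Car2 at 7.52, 22.3, 8.34 and 41.8 (2.20) and the blood group gene Rhd at 0.594, 2.91, 1.25 and 8.23 (2.03). Klf1 and Gata1, the transcription factors of the lineage, were at 0.515, 2.18, 1.23 and 5.8 and at 0.574, 2.5, 0.802 and 4.46, and Alas2, the first enzyme of red cell heme synthesis, at 0.762, 3.77, 0.965 and 6.58. Each of these 6 genes was highest in RUNX1mut/HMGA2-OE and second in RUNX1mut. Hbb-bs reached 3127 in the double mutant (6.19), but it is a short-transcript gene with near-identical copies. The summed level of the list was 187, 572, 199.96 and 4476, of which Hbb-bs made up 3127 in the double mutant. Without Hbb-bs it was 151, 458, 158 and 1349, a sum that still includes the globin genes Hbb-bt, Hba-a1 and Hba-a2. No erythroid marker was listed at 0 in any of the 4 libraries. In HSC/P the median of the same list was -1.29 and -0.92, opposite in sign, and the difference was not tested. The part of red cell precursors within the sorted cells was not tested.

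Megakaryocyte and platelet markers were at least 2-fold higher for 7 of 12 and lower for 1, with a median of 1.11. Pf4, platelet factor 4, was at 1.46, 18.3, 2.93 and 22.3 (2.57), and Itga2b, the integrin CD41, at 0.361, 15.9, 0.766 and 5.56 (1.89). Ppbp was at 0, 2.28, 0.58 and 3.82, listed at 0 in Control. Itgb3, the integrin partner of CD41, went the other way at 14.8, 5.16, 8.0 and 3.43 (-1.02). The summed level of the 14 markers was 25.4, 61.2, 21.2 and 54.5, so both libraries with the mutation lay above both without. Stem and progenitor genes were above 0 for 13 of 14, with 4 at least 2-fold higher, all at low level. Of these, Cd34 was at 0.297, 6.97, 1.24 and 4.82, Gfi1b at 0.358, 1.76, 0.827 and 4.29 and Hoxa9 at 0.515, 0.133, 0.114 and 2.19. Kit, the receptor by which HSC/P were enriched, was at 5.77, 3.65, 4.96 and 2.81 (-0.65). 

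Lymphoid and other myeloid markers gave smaller values. B lymphoid markers were above 0 for 14 of 15, against 55.4% of all genes, with 3 at least 2-fold higher (Igll1, Vpreb1 and Mzb1) and a median of 0.49. The early B cell genes Igll1 and Vpreb1 were at 3.78, 17.8, 1.07 and 4.87 and at 1.21, 13.8, 0.976 and 3.77, both highest in RUNX1mut. Of 20 monocyte and macrophage markers 17 were above 0, 1 at least 2-fold higher and 1 lower. C1qb, a complement gene of macrophages, was at 10.4, 27.5, 11.1 and 23.7 (1.03), and Ly6c2, a surface protein of monocytes and immature neutrophils, at 1566, 773, 1496 and 421 (-1.83). Among mast cell, basophil and eosinophil markers, Prg2, the eosinophil major basic protein, was at 4.85, 68.8, 11.9 and 35.8 (1.51) and Ear2, an eosinophil ribonuclease, at 95.7, 53.1, 97.4 and 33.8 (-1.50). That list had 9 of 12 members at least 2-fold higher in RUNX1mut over Control, with a median of 1.85, and 2 higher and 3 lower of 12 in the present pair, with a median of -0.22. T and NK cell markers summed to between 10.6 and 35.0, and stromal and endothelial markers to between 1.4 and 2.6, with 3, 1, 3 and 2 of 11 listed at 0.

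The 15 largest higher and 15 largest lower ratios among named genes at 10 TPM or more mostly belonged to short-transcript genes. Of the 15 lower genes, from -4.51 to -7.61, 13 have a transcript of 370 to 400 nt, among them Bend6 at 219, 117, 579 and 1.98, Romo1, a small mitochondrial protein, at 159, 147, 1320.5 and 24.9, and Cox15, a heme A synthase, at 36.8, 18.6, 238 and 4.91. Of the 15 higher genes, from 3.74 upwards, 10 have one of 401 to 440 nt, among them Fbxw9 at 1.23, 0.844, 0.63 and 89.5, Naa38 at 43.6, 41, 57.7 and 784 and Hibch at 10.9, 16.4, 8.47 and 162. Rps12 and Hist1h4m were listed at 0 in the other 3 Ly6G+ libraries and stood at 47.7 and 86.0 in the double mutant, so no fold is given. The double mutant had 5 genes listed at 0 that reached 10 TPM in each of the other 3 Ly6G+ libraries, and 10 genes at 10 TPM or more that were at 0 in all 3, against 0 and between 2 and 5 for each of the other libraries.

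The same ranking was made among genes with no transcript of 500 nt or less, a choice made after the values were seen. Stfa1, S100a13 and Penk led the higher genes, and Stfa1 has transcripts of 514 to 617 nt. Penk, which encodes the opioid precursor proenkephalin, was at 4.23, 35.4, 1.72 and 25 (3.25). Serpina3g, a protease inhibitor of activated leukocytes, was at 0.835, 16.9, 1.76 and 10.2 (2.02), and Clec12a, an inhibitory lectin of myeloid cells, at 127, 144, 138 and 470.2 (1.76). Penk and Serpina3g were higher in both libraries with the mutation, Clec12a in the double mutant alone. S100a13 stood at 32.8, 14, 0.00379 and 14.5, so that the near absence in HMGA2-OE sets its ratio of 3.95. On the lower side Ifitm1, an interferon-induced membrane protein, was at 239, 53.3, 791 and 34.7 (-4.47), low in both libraries with the mutation and highest in HMGA2-OE. Hist1h4d, a histone gene with near-identical copies, was at 71.2, 58.4, 76.5 and 1.76 (-4.81). Hcar2, the niacin receptor, was at 28.4, 15.2, 36 and 9.61 (-1.80), and Tnfsf13b, which encodes the B cell survival factor BAFF, at 63, 26.6, 57.8 and 19.2 (-1.54).

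The RUNX1 contrast without HMGA2-OE, RUNX1mut over Control in Ly6G+ cells, used 2 further libraries. Of the same 10945 genes 522 (4.77%) were at least 2-fold higher and 346 (3.16%) lower there. At least 2-fold higher in both pairs were 146 genes, 21.8% of the 669 and 28.0% of the 522, while 31 of the 669 were at least 2-fold lower without HMGA2-OE. At least 2-fold lower in both were 119, 22.3% of the 534 and 34.4% of the 346, while 42 of the 534 were higher. Among the 5166 genes with no transcript of 500 nt or less the overlap was 56 higher, 38.4% of 146 and 30.3% of the 185 higher without HMGA2-OE (3.58%), and 42 lower, 34.4% of 122 and 50.6% of the 83 lower without it (1.61%). In that set 3 and 5 genes went opposite ways. All 4 libraries entered 1 set of scaling factors. The size of the ratio differed by gene between the pairs, for example 0.71 against 2.96 for Elane and 4.0 against 1.48 for Stfa1, and such differences were not tested.

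**Figure D4:**
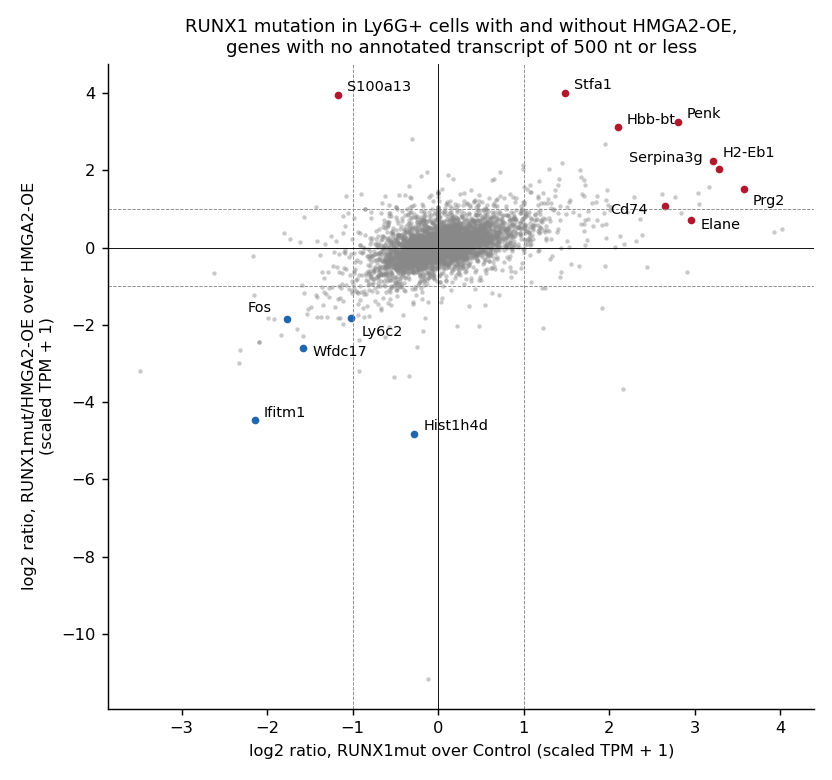
Each point is 1 of the 5166 genes with no annotated transcript of 500 nt or less, with the log2 ratio of RUNX1mut over Control on the x axis and of RUNX1mut/HMGA2-OE over HMGA2-OE on the y axis, both in Ly6G+ cells with 1 library a genotype. Dashed lines mark 2-fold: 56 genes lie beyond it upwards in both pairs and 42 downwards in both, against 3 and 5 in the other corners, and named genes are coloured red (higher) or blue (lower).

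The genotype contrast in HSC/P, 2 RUNX1mut/HMGA2-OE libraries against 1 HMGA2-OE library, shared fewer genes with the Ly6G+ pair. There 406 (3.71%) of the 10945 genes were at least 2-fold higher and 348 (3.18%) lower. At least 2-fold higher in both cell types were 64 genes, 9.57% of the 669 and 15.8% of the 406, and 43 of the 669 were lower in HSC/P. At least 2-fold lower in both were 55, 10.3% of the 534 and 15.8% of the 348, and 28 of the 534 were higher in HSC/P. Without transcripts of 500 nt or less the shares of 5166 genes in HSC/P were 3.33% higher and 3.1% lower, and 28 higher and 20 lower genes were common to both cell types, with 18 and 8 in opposite directions.

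In all 3 pairs 35 genes were at least 2-fold higher and 21 lower, 20 and 11 of them without a transcript of 500 nt or less. By the smallest of the 3 ratios, Runx3, Stfa3, H2-Eb1 and Serpina3g were among the leading higher genes. Grap, an adaptor of lymphocyte receptors, was at 1.88, 25.6, 0.715 and 7.27 (2.27), and Tmem176b, a membrane protein of immature antigen-presenting cells, at 1.58, 11.7, 2.9 and 8.7 (1.32). Gimap6, a GTPase of lymphocytes, was at 1.34, 4.88, 1.76 and 8.66 (1.81), and Renbp, a renin-binding protein, at 2.96, 8.36, 2.65 and 24.2 (2.79). The leading lower genes were Stk39, a kinase that regulates ion transport, at 64.4, 12.2, 76 and 22.1 (-1.74), and Mgst2, which makes leukotriene C4, at 617, 121, 94.6 and 35.3 (-1.40). In HSC/P Stk39 differed by -2.97 and -3.45 and Mgst2 by -1.26 and -1.74. Mgst2 was already low in HMGA2-OE relative to Control, while Stk39 was not. Further genes lower in all 3 pairs were Gca, which encodes grancalcin, at 172, 81.5, 541 and 40.0 (-3.72), Acpp, a phosphatase, at 19.4, 7.21, 25.1 and 10.3 (-1.21), and Rogdi at 166, 58.4, 187 and 52.3 (-1.82), besides Il1r2, Tnfsf13b, Asns and Ly6c2. Runx3, Stfa3, Gimap6, Renbp, Stk39, Mgst2, Gca, Rogdi and Asns are short-transcript genes. Of the genes named here as lower in all 3 pairs, each except Mgst2 had its 2 lower Ly6G+ levels in the libraries with the RUNX1 mutation.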

How the data were processed

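RNA of 7 sorted bone marrow samples was sequenced. The authors deposited TPM values: the table is described as counts, but its numbers are not whole and its columns have nearly equal sums. The submitters' processing notes name bcl2fastq, CASAVA 1.8, kallisto and mm10, while the kallisto version, index and annotation were not stated in what was used here. No sample column was left unused (0). Because TPM keeps no reads, depth and counting error are unknown, and with 1 library a side no test was made.

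Scaling factors were unweighted trimmed means of log ratios (trimming 0.3 by ratio and 0.05 by level) over genes at 1 TPM or more in at least 2 Ly6G+ libraries. For each ratio 1 TPM was added to both scaled values before taking log2, which understates the ratios of low genes. Symbols, coordinates and transcript lengths came from GENCODE M21 (27458 of 28987 identifiers), promoters from RefSeq GRCm38.p6. The annotation may differ from the one the authors quantified against. The members, the 37 gene lists (550 of 554 memberships in the table, 540 distinct genes) and the rules were chosen with earlier results of these data known.

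Named genes were Hmga2, Runx1, Runx2, Runx3, Ly6g, S100a8 and S100a9, the 15 largest ratios in each direction at 10 TPM or more without clone names and pseudogenes, the 10 per direction leading in all 3 pairs, and the 2 highest and 2 lowest of each list. The length classes, the ranking among genes without transcripts of 500 nt or less and all further named list members were chosen after values were seen. Simulated 4-fold and 2-fold differences were recovered with median log2 ratios of -1.89, -0.94, 0.97 and 1.97. The simulation altered genes at 10 TPM or more, equally often up and down, and held no transcript-length pattern. It therefore does not show how closely ratios of the real pair are recovered. Python 3.11.15, numpy 2.4.6, pandas 2.3.3 and matplotlib 3.10.9 were used. Other settings tried were the scaling, the pseudocount, the filter, transcript length, listed zeros and leaving out an HSC/P library.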

Additional observations from a re-analysis of the deposited data

Results flagged for a closer look

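Among the genes named by rule, 7 had a ratio for the RUNX1 mutation of at least 2-fold in opposite directions in separate pairs (in both HSC/P libraries where these were compared), and 1 list had medians at least 0.5 from 0 with opposite signs. None of these differences was tested. With HMGA2-OE against without it in Ly6G+ cells, S100a13 stood at 3.95 against -1.17, the site-2 protease gene Mbtps2 at -4.51 against 1.37 and the stefin gene BC117090 at -4.06 against 2.13. Mbtps2 and BC117090 are short-transcript genes, and S100a13 was near 0 in the HMGA2-OE library. Between Ly6G+ cells and the 2 HSC/P libraries of the double mutant, Olfm4 stood at 1.35 against -5.01 and -4.71, Socs3 at -1.46 against 2.52 and 1.69, and Rhd at 2.03 against -1.48 and -1.18. Rps12 stood at 5.61 against -10.13 and -4.05, and the Ly6G+ HMGA2-OE library lists it at 0. The median of the erythroid list was 1.67 against -1.29 and -0.92.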

How the results depend on the processing

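Depth is unknown, each Ly6G+ genotype has 1 library, and no ratio has an error. The count of genes at least 2-fold higher, 669, came to 5625 without scaling, 1365 and 239 with 0.1 and 5 TPM added, 295 without short-transcript genes and 146 without transcripts of 500 nt or less. The count lower, 534, came to 238 without scaling, 306 with 5 TPM added, and 189 and 122 without the same transcripts. Higher in both Ly6G+ pairs, 146 by the main setting, were 476 without scaling, 468 and 30 with 0.1 and 5 TPM added, and 85 and 56 without the transcripts. Lower in both, 119, were 49, 181, 50, 60 and 42 in that order. Higher in Ly6G+ and HSC/P, 64, were 259, 222, 11, 42 and 28, and lower, 55, were 17, 113, 20, 30 and 20. Leaving out either HSC/P double mutant library gave 63 to 68 higher and 56 to 71 lower. Lists whose median lay 0.5 or more from that of all genes, 7, numbered 4 with genes above 0 TPM, and 12 and 3 with 0.1 and 5 TPM added. Without scaling 6 single ratios changed sign: Asns 0.011, Hp 0.0051, Ldha 0.13, Oasl2 0.16, Slc2a1 0.0066 and Spi1 0.19. Upper-quartile scaling moved each of 229 single values by less than 0.306. That spread is the SD of the log2 difference between the 2 HSC/P double mutant libraries, divided by the square root of 2. A change of scaling factors moves all ratios of a pair nearly alike, so the 229 values are not separate checks. Short transcripts and listed zeros were added as settings after the data were seen. No paired analysis was possible because each Ly6G+ genotype has 1 library and the 2 HSC/P numbers occur in 1 genotype.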

Other observations

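Of 8 measured heat shock genes 7 were above 0, with a median of 0.39 and 1 at least 2-fold higher. Hsph1, a large co-chaperone, was at 0.315, 1.22, 0.849 and 6.2 (1.96), and Hspe1, the mitochondrial chaperonin partner, at 2.36, 8.47, 4.07 and 8.24 (0.86). In the S100 family 1 of 8 was at least 2-fold higher (S100a13) and 1 lower (S100a8), with a median of 0.06. S100a4, a calcium sensor of motile cells, was at 1.22, 6.54, 3.37 and 7.65 (0.98), above its counterpart in both libraries with the RUNX1 mutation, and S100a6 was at 1003, 989.8, 867 and 639 (-0.44).

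Adhesion genes had 0 of 10 at least 2-fold in either direction, where 89.0% of all genes also lay within 2-fold. Itga4, the integrin chain CD49d, was at 2.83, 6.81, 3.93 and 7.76 (0.83). Cholesterol synthesis genes had 0 of 15 at least 2-fold in either direction, with a median of -0.14. Of 18 V-ATPase and lysosome genes 1 was at least 2-fold lower: Atp6v0a1, a proton pump subunit and short-transcript gene, at 262, 88.6, 83.1 and 27.6 (-1.56). Among 8 p53 targets 1 was at least 2-fold lower: Aen, an apoptosis nuclease and short-transcript gene, at 5.83, 2.73, 30.2 and 1.28 (-3.77). Of 10 JAK-STAT genes 1 was at least 2-fold lower (Socs3), with a median of -0.42, and the cytokine gene Osm was at 90.1, 50.4, 80.0 and 40.4 (-0.97).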
